A study of Mus musculus with 2 samples.

Results

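A DNase footprint is a short stretch of DNA inside open chromatin that the nuclease DNase I cut less often than the bases on either side. The footprints described here are those whose centre lay within 200 bp of the 5′ end of an autosomal protein-coding gene, with upstream and downstream read along the gene's strand. Gene 5′ ends, called starts below, came from the GENCODE annotation of the mouse assembly GRCm38 (mm10). Technical replicate 7 held 26183 such footprints among 105360 autosomal ones, which is 24.9% (95% exact Clopper-Pearson interval 24.6 to 25.1%). Technical replicate 1 held 54882 among 214616, which is 25.6% (25.4 to 25.8%). The windows around the 20807 starts covered 0.327% of the autosomal bases.

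The tissue was liver of B6NCrl mouse embryos at embryonic day 11.5, pooled over males and females, with no treatment named in the labels. Both DNase-seq libraries, technical replicate 7 and technical replicate 1, came from the same biosample and the same donor entry, so there was 1 biological sample and no second condition. The submitters made the 2 footprint lists by different processing. Every quantity is therefore given within each library, and numbers are not compared between them. No p-value was computed, since no biological replicates exist, and all intervals cover counting error only.

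A gene's core promoter is the stretch around its start where RNA polymerase II and the general transcription factors assemble. Many promoters lie in CpG islands, which are rich in C and G and keep the CpG dinucleotide that methylation has removed elsewhere. Such promoters often carry sites for SP proteins, NRF1, ETS proteins such as GABPA, and NFY, while a TATA box, bound by the TATA-binding protein, is more usual in CpG-poor ones. A footprint marks protection from the nuclease and does not by itself name the protein on the DNA.

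Sequences of 10 footprints are given as examples, with 10 bp on each side. At Ttf1, Eif3l and Zfp809 the end of the motif match lay outside the footprint, and the sequence runs on to 10 bp past the match. For each of the 5 motifs, both genes were chosen among starts where a footprint held the motif centre and overlapped one of the other library. They were the ones whose footprint lay nearest to the 10 bp bin where that motif was most frequent in footprints of technical replicate 7. Ties were settled by the density of the strongest peak in that library. The motif, the position and the overlap of each footprint shown were thus fixed by the choice. Sequences are from the RefSeq assembly GRCm38 (mm10), written 5′ to 3′ along the gene's strand, with the motif match in capitals.

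Rnf34 (SP, chr5:122850014-122850052, plus strand): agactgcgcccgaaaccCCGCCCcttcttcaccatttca

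Sesn2 (SP, chr4:132510500-132510532, minus strand): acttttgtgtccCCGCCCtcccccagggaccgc

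Bcas2 (NRF1, chr3:103171632-103171668, plus strand): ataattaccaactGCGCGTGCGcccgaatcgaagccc

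3110009E18Rik (NRF1, chr1:120121164-120121200, plus strand): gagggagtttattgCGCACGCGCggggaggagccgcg

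Ttf1 (ETS, chr2:29060253-29060283, plus strand): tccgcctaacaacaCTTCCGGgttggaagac

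Eif3l (ETS, chr15:79075167-79075204, plus strand): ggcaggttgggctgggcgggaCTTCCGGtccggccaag

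Sfpq (NFY, chr4:127021225-127021275, plus strand): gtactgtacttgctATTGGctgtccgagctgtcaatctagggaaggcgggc

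Zfp809 (NFY, chr9:22225620-22225658, plus strand): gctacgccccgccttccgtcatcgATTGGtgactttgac

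Srsf2 (TATA, chr11:116853100-116853139, minus strand): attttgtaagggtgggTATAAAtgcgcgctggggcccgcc

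Id1 (TATA, chr2:152736204-152736246, plus strand): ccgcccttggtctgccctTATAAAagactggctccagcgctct

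In both TATA examples the match lay on the gene's own strand, with its centre at −26.5 bp from the start. The footprint over it was 20 bp wide at Srsf2, which encodes a splicing factor of the SR family, and 23 bp wide at Id1, which encodes an inhibitor of helix-loop-helix transcription factors. The footprints over the NRF1 matches were 17 bp wide at both Bcas2, a spliceosome component, and 3110009E18Rik. At Rnf34, which encodes an E3 ubiquitin ligase, the footprint over the GC box was 19 bp wide, and at the stress-response gene Sesn2 it was 13 bp wide. The ETS example at Eif3l, a subunit of translation initiation factor 3, held an SP match in the same 16 bp footprint. At Ttf1, the RNA polymerase I termination factor, the footprint over the ETS match was 9 bp wide. The NFY footprint at Sfpq, a splicing factor, was 31 bp wide, and that at Zfp809, a zinc finger silencer of retroviral DNA, was 18 bp wide.

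Footprints were most frequent just upstream of the start. In both libraries the bin with the most footprints, among 40 bins of 10 bp, ran from 20 to 10 bp upstream. It held 1474 footprints in technical replicate 7 and 2297 in technical replicate 1. Upstream footprints made up 65.7% (65.1 to 66.3%) of the members in technical replicate 7 and 52.1% (51.7 to 52.6%) in technical replicate 1. The quartiles of the distance were −85, −30 and 22 bp in technical replicate 7 and −76, −6 and 71 bp in technical replicate 1. The stretch from 100 bp upstream to 50 bp downstream held 63.8% and 50.1% of the members, respectively.

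A start was called open where a peak of the same library overlapped its window, using the shorter of the library's peak lists. In technical replicate 7 the profile per 1000 open starts climbed from 23.6 footprints in the bin 200 to 190 bp upstream to 107 at 50 to 40 bp upstream and 119 at 20 to 10 bp upstream. It then declined to 91.3 in the first 10 bp downstream and to 12.6 in the last bin, 190 to 200 bp downstream. The same 4 positions gave 58.3, 169, 199 and 167 footprints per 1000 open starts in technical replicate 1, and its last bin gave 82.1. Technical replicate 1 also had a second, lower rise downstream, with 147 footprints at 60 to 70 bp against 137 in the bin before it. Technical replicate 7 had 49.1 and 55.5 in these bins and no rise there. The part of the lists' different processing in these shapes was not tested.

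**Figure D1:**
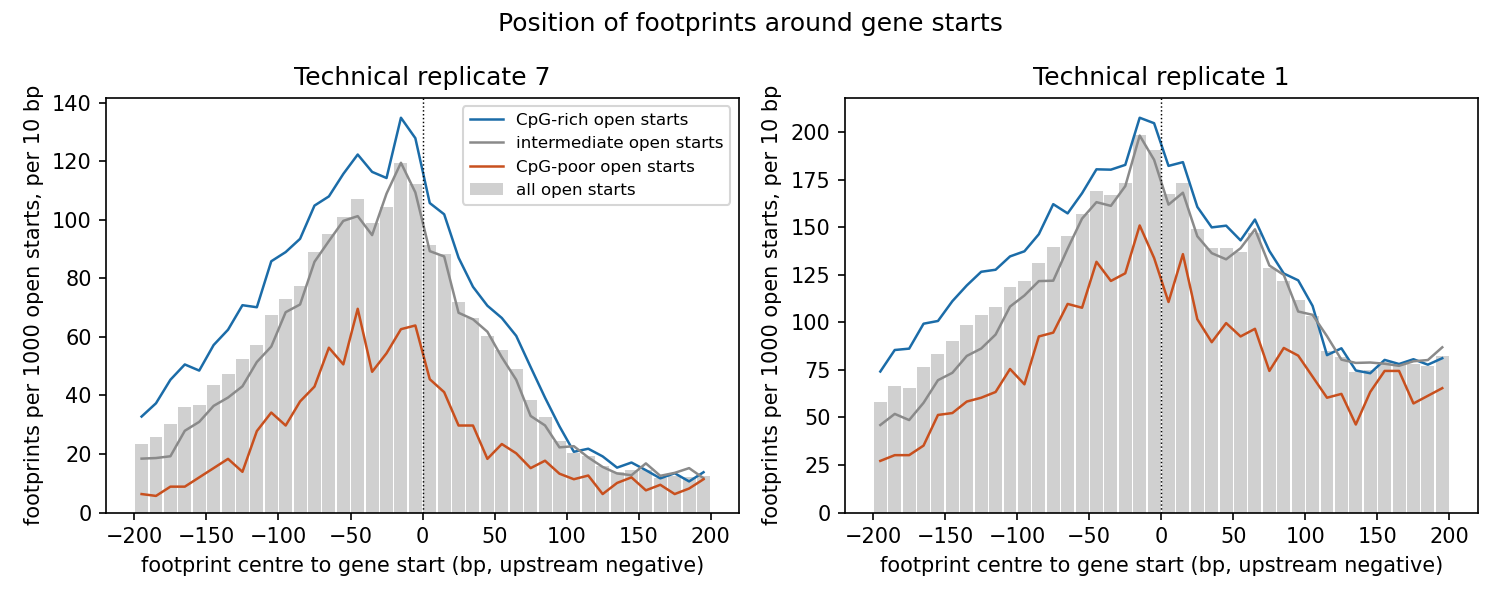
Footprints per 1000 open starts in 10 bp bins (y axis) against the distance of the footprint centre from the gene start in bp (x axis), with grey bars for all open starts and lines for the CpG classes. Both libraries are highest at 20 to 10 bp upstream (119 and 199 footprints), and the CpG-poor line lies lowest in each of the 40 bins.

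The strongest peak at an open start showed the same side preference. Its summit, as deposited, lay upstream of the start in 69.4% (68.6 to 70.2%) of the 12255 open starts of technical replicate 7, at a median of −30 bp. For technical replicate 1 the summit was upstream in 58.4% (57.5 to 59.3%) of 11193 open starts, at a median of −16 bp. Across the 19 autosomes the upstream share of footprints ranged from 60.8 to 70.8% in technical replicate 7 and from 49.3 to 54.2% in technical replicate 1.

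Start footprints were short, with a median width of 10 bp in both libraries. The interquartile range was 7 to 14 bp in technical replicate 7 and 7 to 15 bp in technical replicate 1, and 7 bp was the smallest width in both lists. Footprints more than 1000 bp from any such start had a median width of 8 bp in both. Footprints of 20 bp or more made up 7.40% of the start footprints against 9.16% of the distant ones in technical replicate 7. The order was the other way round in technical replicate 1, with 13.7% at starts against 7.46% far from them. The lists therefore do not give 1 answer on whether wide footprints are more usual at starts. Neighbouring footprints of the same start lay a median of 33 bp apart, edge to edge, in technical replicate 7 and 29 bp apart in technical replicate 1.

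Of all starts, 10024 (48.2%) had at least 1 footprint in technical replicate 7 and 11858 (57.0%) in technical replicate 1. Among open starts these shares were 80.6% (9873 of 12255) and 96.4% (10790 of 11193). Starts without a peak rarely had one, at 1.77% in technical replicate 7 and 11.1% in technical replicate 1. Of the start footprints, 97.8% and 89.9% overlapped a peak of the same library. In technical replicate 1 the peaks used and the footprints came from different processing, and its part in these shares was not tested. An open start held a mean of 2.31 and a median of 2 footprints in technical replicate 7, and a mean of 5.05 and a median of 5 in technical replicate 1. Open starts with 5 or more footprints made up 12.6% and 59.1%, and those with 8 or more 0.694% and 16.2%. Technical replicate 7 also had a longer footprint list, with 54023 footprints at starts against 26183 in the shorter list used here. Its numbers per start hold for the shorter list only.

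**Figure D2:**
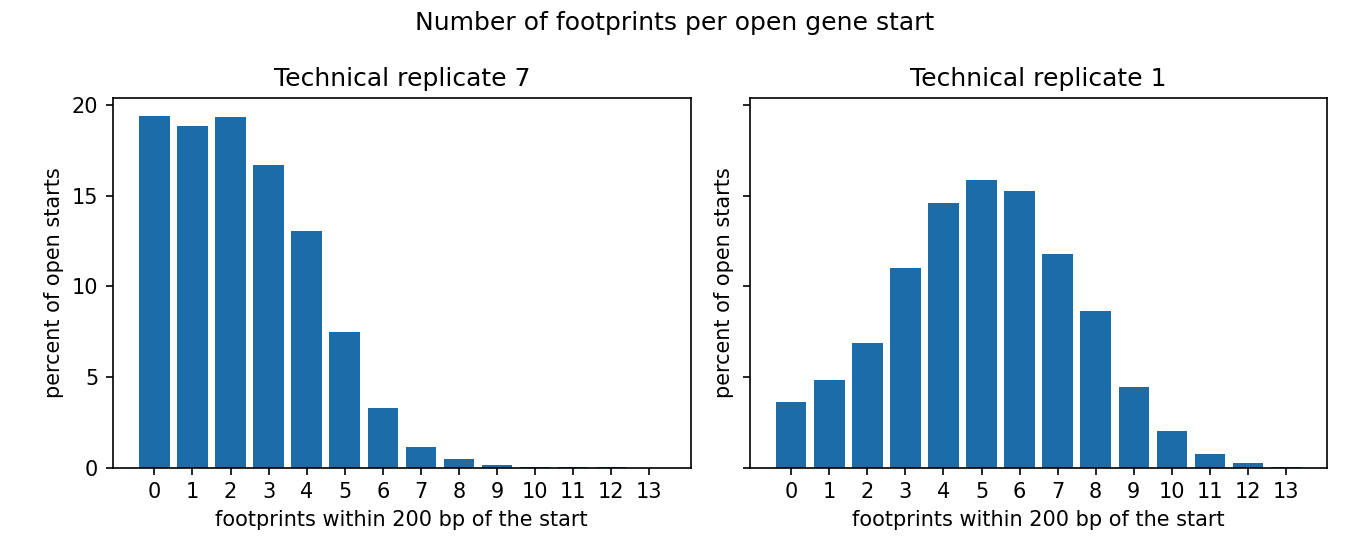
Percent of open starts (y axis) by the number of footprints within 200 bp of the start (x axis), for each library. Technical replicate 7 has 19.4% of open starts at 0 and reaches 12 footprints, and technical replicate 1 has 3.60% at 0, its highest bar at 5 footprints (15.9%), and reaches 13.

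The start with the most footprints in technical replicate 7 was that of Lims1, an adaptor protein of integrin adhesions, with 12. It was followed by Siva1 with 11, and by Ikbip, Dazap2 and Hspa8, the constitutive cytosolic HSP70 chaperone, with 10 each. All 12 footprints at Lims1 overlapped a footprint of technical replicate 1, where the same start held 8 wider ones. Of the 12, 3 held an SP match. The highest in technical replicate 1 were Fasn, the fatty acid synthase, and Chchd4, an import factor of the mitochondrial intermembrane space, with 13 each. Oard1, Sec23a and Cdk2ap2 followed with 12 each. In technical replicate 7 the start of Fasn held 3 and that of Chchd4 held 4. At Chchd4 the 2 NRF1 footprints, centred at −68.5 and −159.5 bp in technical replicate 7, were called in both libraries. The rank of a single start thus depended on the list, and all 10 starts belonged to the CpG-rich class defined next.

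Starts were grouped by the CpG observed over expected ratio in the 1000 bp around them, where values above 0.75 were called CpG-rich (5935 starts), values below 0.48 CpG-poor (9142) and the rest intermediate (5730). Few CpG-poor starts were open, 17.3% in technical replicate 7 against 96.6% of the CpG-rich ones, and 10.9% against 93.9% in technical replicate 1. Among open starts of technical replicate 7, 87.2% of the CpG-rich ones (5002 of 5734) and 60.7% of the CpG-poor ones (959 of 1581) held a footprint. The gap was 26.6 percentage points (Newcombe interval 24.0 to 29.1). The shares in technical replicate 1 were 98.2% (5472 of 5571) and 89.7% (892 of 994), a gap of 8.48 points (6.71 to 10.6). Open CpG-rich starts held a mean of 2.78 ± 1.85 footprints (SD over starts) in technical replicate 7 and open CpG-poor starts 1.05 ± 1.14. The means in technical replicate 1 were 5.58 ± 2.34 and 3.30 ± 2.10.

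Peak density, the highest density of DNase cuts in a peak on the scale used by the authors, differed between the classes as well. Its median at open starts was 3.59 in CpG-rich and 0.749 in CpG-poor starts in technical replicate 7, and 3.18 and 1.21 in technical replicate 1. Starts were therefore compared within quintiles of the density of their strongest peak. In the lowest quintile of technical replicate 7 the CpG-poor starts held a footprint more often, 46.4% (421 of 907) against 38.2% (207 of 542), a gap of −8.22 points (−13.4 to −2.96). The gaps in the next 4 quintiles were −1.89, 4.94, 3.26 and −1.57 points, and each of these 4 intervals reached 0. The 5 gaps of technical replicate 1 ran from −0.264 to 6.31 points, and the intervals of the second (1.34 to 7.46) and the fourth (1.63 to 20.6) excluded 0. In the lower 4 quintiles of technical replicate 7 the intervals lay below the 26.6-point gap over all open starts. That of the top quintile ran from −2.29 to 33.9 and contained it. The top quintile held only 7 CpG-poor starts in technical replicate 7 and 12 in technical replicate 1. With the longer footprint list of technical replicate 7 the gap over all open starts was 6.95 points (5.42 to 8.64).

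**Figure D3:**
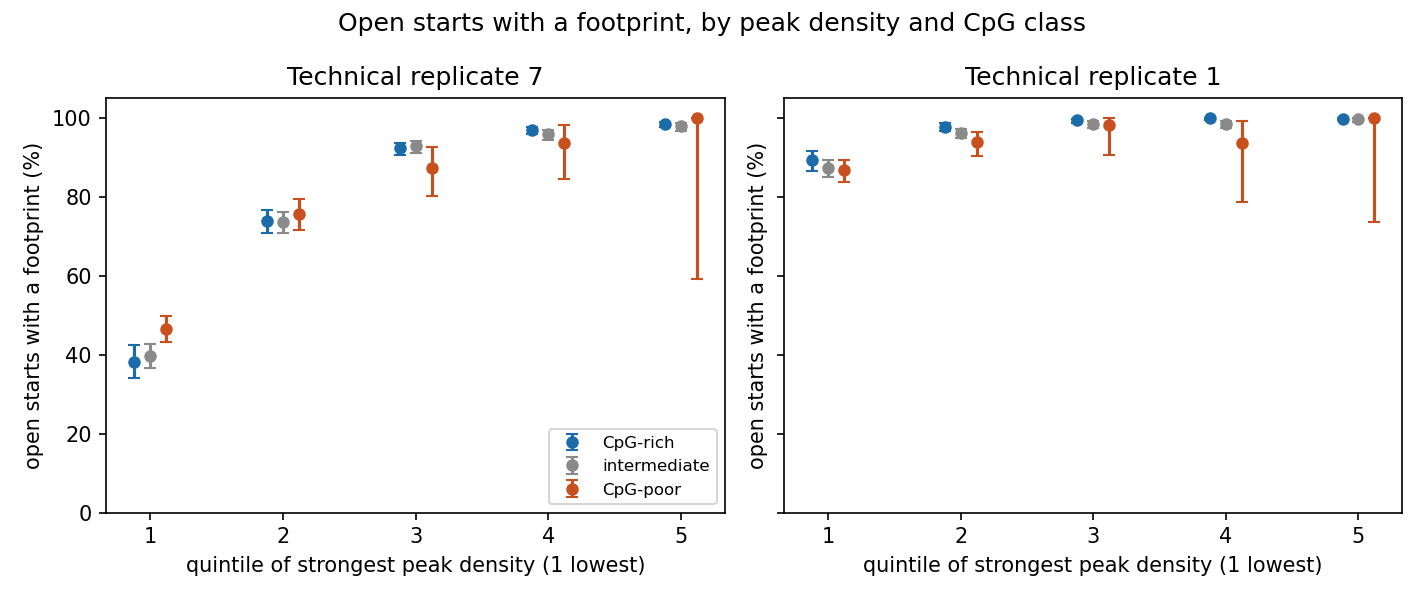
Percent of open starts with at least 1 footprint (y axis, with exact 95% intervals) by quintile of the strongest peak density (x axis) and CpG class. In technical replicate 7 the share climbs from 38.2 to 98.4% for CpG-rich starts and from 46.4 to 100% for CpG-poor ones, and CpG-poor starts lie above CpG-rich ones in the lowest quintile.

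The number of footprints per start was higher in the top than in the lowest density quintile for both classes. In technical replicate 7 the mean for CpG-rich starts was 0.554 in the lowest quintile and 4.09 in the highest, and for CpG-poor starts 0.653 and 3.71. CpG-rich starts of technical replicate 1 had the higher mean in each of the 5 quintiles, from 3.30 against 2.75 in the lowest to 6.52 against 4.67 in the highest. The upstream share of footprints at open starts of technical replicate 7 was 66.6% (65.8 to 67.4%) in CpG-rich, 64.6% (63.6 to 65.5%) in intermediate and 65.6% (63.2 to 67.9%) in CpG-poor starts. In technical replicate 1 it was 54.5% (53.9 to 55.0%), 50.2% (49.5 to 50.9%) and 50.2% (48.5 to 51.9%). The bin with most footprints was 20 to 10 bp upstream in every class of both libraries except the CpG-poor starts of technical replicate 7, where it was 50 to 40 bp upstream with 110 footprints.

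Starts with a partner on the other strand within 1000 bp upstream, which share a divergent promoter, numbered 1450. Of these, 93.9% were open in technical replicate 7 and 94.0% of the open ones held a footprint (92.7 to 95.2%), against 79.2% (78.43 to 80.04%) of open starts with no other start within 1000 bp. Their mean was 3.23 against 2.20 footprints, with 2.27 against 1.48 upstream and 0.956 against 0.715 downstream. In technical replicate 1 the means were 5.87 and 4.94, with 3.60 against 2.64 upstream and 2.26 against 2.28 downstream. Median peak density was also higher at the divergent starts, 4.15 against 2.49 and 3.50 against 2.56, and its part in these differences was not tested.

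Motifs were searched as exact letters on both strands, namely GGGCGG for SP, CCAAT for NFY, GCGCNTGCG for NRF1, CCGGAAG for ETS and TATAAA for TATA. A match counted for a footprint when its centre lay inside. Matches of different motifs may overlap. Of the start windows, 50.6% held an SP match, 42.6% NFY, 13.6% TATA, 13.4% ETS and 9.52% NRF1. At least 1 of the 5 motifs lay in 27.1% (26.6 to 27.7%) of the footprints of technical replicate 7. Windows of the same width, 40 bp to either side and touching no footprint, held one in 8.87%, giving a ratio of 3.06 (Katz interval 2.95 to 3.17). In technical replicate 1 the shares were 19.7% and 6.53%, a ratio of 3.02 (2.92 to 3.11). Footprints were richer in G and C than these flanks, at 76.2% against 63.9% in technical replicate 7 and 72.3% against 63.3% in technical replicate 1. Against flanks whose number of G and C bases differed by at most 1, the ratios were 2.30 (2.17 to 2.43) and 2.06 (1.958 to 2.168). Footprints without such a flank were left out of these ratios, here and wherever flanks of like G and C content are used below.

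SP, the GC box bound by SP1 and related zinc finger proteins, was the most usual of the 5. It lay in 19.6% of the footprints of technical replicate 7 and 14.3% of those of technical replicate 1, at 4.54 (4.31 to 4.79) and 4.56 (4.36 to 4.76) times the flank share. Against flanks of like G and C content these ratios were 2.34 (2.17 to 2.51) and 2.22 (2.08 to 2.37). SP footprints were concentrated upstream, where the bin 20 to 10 bp upstream held most matches in both libraries, 424 and 645. Upstream matches made up 78.0% of the SP matches in footprints but 60.1% of all SP matches at open starts in technical replicate 7, and 72.8% against 60.2% in technical replicate 1. A match 60 to 50 bp upstream lay in a footprint in 36.5% of cases in technical replicate 7, and one 190 to 200 bp downstream in 6.84%. Of all bases in these bins, 13.6% and 1.40% lay in a footprint.

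NRF1, a regulator of nuclear genes for mitochondrial and other housekeeping functions, had the highest ratio of the 5. Its motif lay in 4.08% of footprints at 8.44 (7.24 to 9.83) times the flank share in technical replicate 7, and in 2.33% at 6.76 (5.92 to 7.72) times in technical replicate 1. Most NRF1 matches at open starts were inside a footprint, 55.9% (53.9 to 57.8%) of 2648 and 65.0% (63.2 to 66.9%) of 2608, where 6.65% and 15.8% of all bases were. The motif is nearly its own reverse complement, so that 1 site can match on both strands. With matches at most 2 bp apart counted once, 52.0% of 2375 sites and 62.3% of 2335 sites were footprinted. The top bins lay at the start itself, 10 to 0 bp upstream in technical replicate 7 and the first 10 bp downstream in technical replicate 1. Footprinted matches had medians of −28 and −26 bp, and all matches at open starts −24 bp in both libraries. Footprints with the motif had a median width of 17 bp against 10 bp without it in technical replicate 7, and 19 bp against 10 bp in technical replicate 1. When the whole motif had to lie inside, the ratios were 18.8 and 13.5, and against flanks of like G and C content they were 5.80 (4.72 to 7.14) and 4.14 (3.437 to 4.996).

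ETS, the core of the site of GABPA and ELK proteins, lay in 2.26% of footprints of technical replicate 7 and 1.93% of technical replicate 1, at 2.16 (1.91 to 2.45) and 2.88 (2.60 to 3.20) times the flank share. Footprinted ETS matches lay close to the start, with medians of −11 and −10 bp and the top bin in the first 10 bp downstream in both libraries. So did ETS matches at open starts as a whole, with a median of −6 bp in both. From 40 bp upstream to 20 bp downstream, 27.8% (25.3 to 30.5%) of ETS matches at open starts were footprinted in technical replicate 7, against 17.99% (16.3 to 19.8%) elsewhere in the window. The same shares were 49.6% (46.6 to 52.5%) and 34.7% (32.5 to 36.8%) in technical replicate 1. All bases were also footprinted most often close to the start, up to 14.9% at 18 bp upstream in technical replicate 7 and 29.3% at 17 bp upstream in technical replicate 1.

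**Figure D4:**
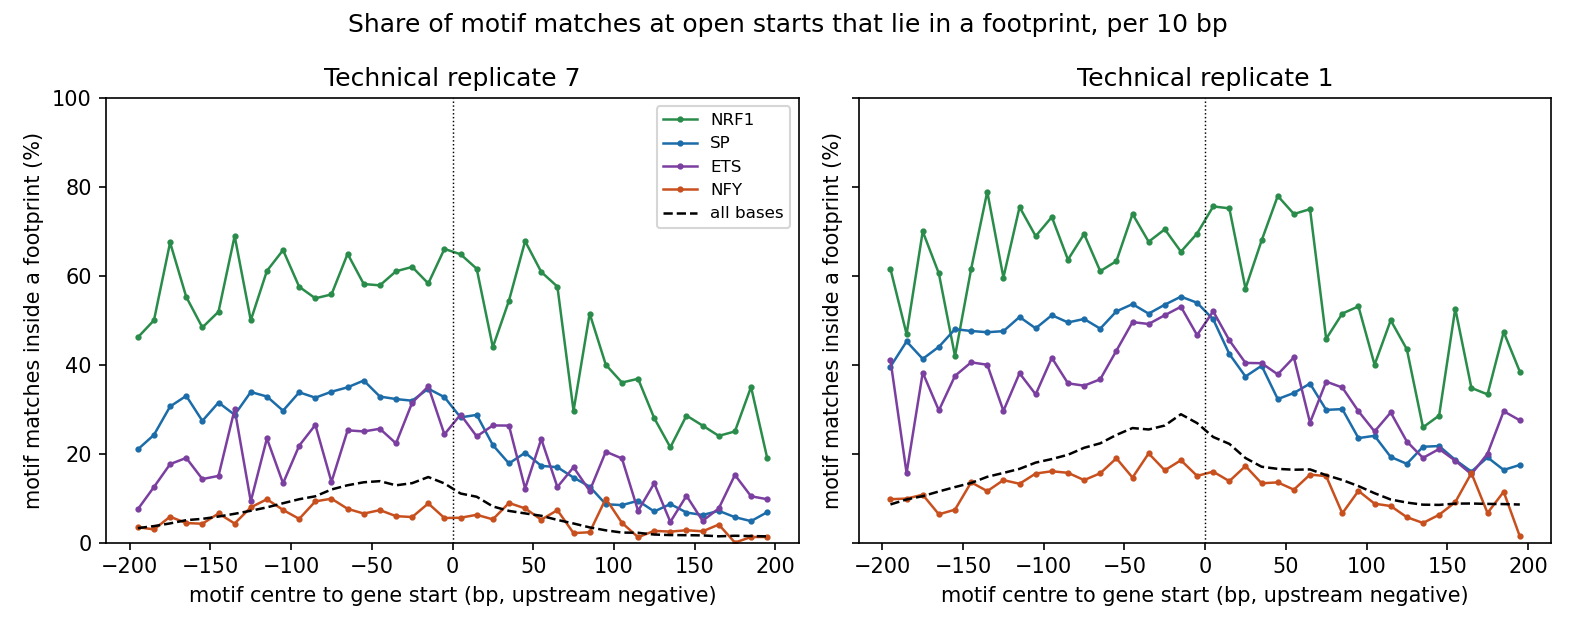
Percent of motif matches at open starts whose centre lies in a footprint (y axis) by distance from the start in 10 bp bins (x axis), with the share of all bases in a footprint as a dashed line. NRF1 lies above SP and ETS in most bins, SP is higher upstream (36.5% at 60 to 50 bp upstream in technical replicate 7) than downstream, and NFY lies at or below the dashed line through most of the upstream side.

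NFY, the trimeric factor that binds CCAAT boxes, went the other way. Its motif was held by 1.65% (1.50 to 1.81%) of the footprints but 3.02% (2.85 to 3.19%) of the flanks in technical replicate 7, a ratio of 0.546 (0.489 to 0.608). The ratio in technical replicate 1 was 0.716 (0.662 to 0.775). Against flanks of like G and C content the ratios were 1.03 (0.870 to 1.21) and 1.00 (0.879 to 1.14), and with the longer list of technical replicate 7 the ratio was 0.850 (0.788 to 0.916). CCAAT matches at open starts lay at a median of 58 bp upstream in both libraries. Of 7817 matches, 6.20% (5.68 to 6.76%) had their centre in a footprint in technical replicate 7, and of 7243, 13.9% (13.1 to 14.7%) in technical replicate 1. At 60 to 50 bp upstream the share was 6.53% in technical replicate 7, where 13.6% of all bases were footprinted.

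Footprints lay beside the CCAAT more often than over it. Read along the motif's own direction, the share of sites whose base was footprinted was 6.01% at the centre of the CCAAT in technical replicate 7. It was 14.5% at 15 bp on the 3′ side and 13.7% at 20 bp on the 5′ side. The same 3 values were 13.6%, 25.4% and 24.3% in technical replicate 1. SP and NRF1 had the opposite shape. The NRF1 share was 55.0% at the centre and 7.82% at 12 bp on the 3′ side in technical replicate 7. The SP share was 25.5% at the centre and 5.99% at 14 bp on the 3′ side. The centre values of technical replicate 1 were 64.4% for NRF1 and 42.8% for SP. The part of G and C content in these shapes was not tested.

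**Figure D5:**
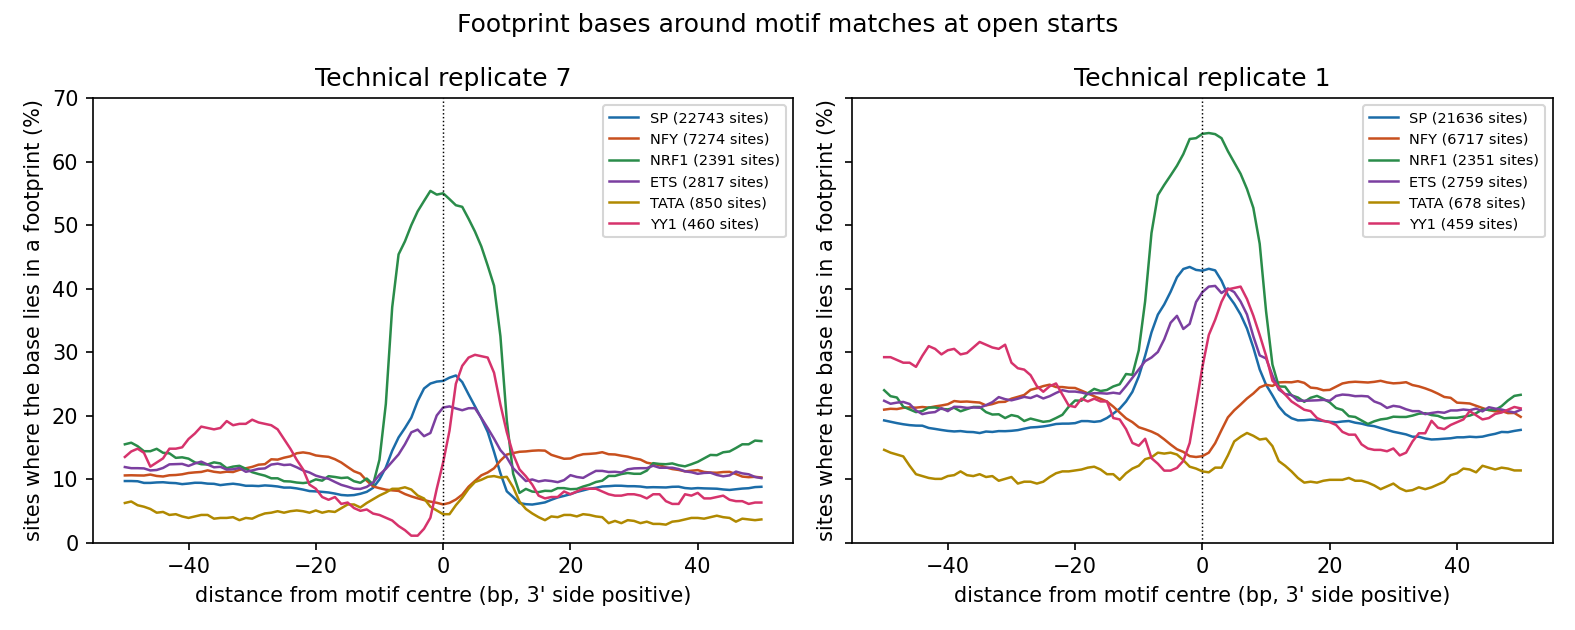
Percent of motif sites at open starts where a base lies in a footprint (y axis) against the distance of that base from the motif centre in bp (x axis, 3′ side positive), for the 5 motifs and YY1 (AAGATGGCG). NRF1, SP and ETS are highest near the centre, and YY1 is highest 5 to 6 bp to the 3′ side. NFY (6.01 and 13.6%) and TATA (4.47 and 11.2%) are lower at the centre than just beside it.

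TATA was rare in footprints. It was held by 31 footprints (0.118%) of technical replicate 7 and 73 (0.133%) of technical replicate 1, at 1.23 (0.766 to 1.98) and 1.23 (0.900 to 1.69) times the flank share, so that neither ratio could be told from 1. With flanks at 80 bp the ratios were 0.841 (0.544 to 1.30) and 0.874 (0.648 to 1.18), and with flanks of like G and C content 4.28 (1.18 to 15.6) and 3.44 (1.34 to 8.78). Footprinted TATA matches were most frequent at the usual place of a TATA box. On the gene's strand, 40 to 20 bp upstream, 11 of 111 matches (9.91%, 5.05 to 17.0%) were footprinted in technical replicate 7, and 18 of 425 (4.24%, 2.53 to 6.61%) elsewhere. In technical replicate 1 these were 24 of 87 (27.6%, 18.5 to 38.2%) and 37 of 343 (10.8%, 7.71 to 14.6%). On the other strand at that position 0 of 27 were footprinted in technical replicate 7, which allows a share of up to 12.8%, and 1 of 19 in technical replicate 1. In the bin 30 to 20 bp upstream 9.57% of all TATA matches and 13.4% of all bases were footprinted in technical replicate 7, and 28.2% and 26.3% in technical replicate 1. Footprints that held TATA were wide, with a median of 21 bp and 20 bp.

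The classes of starts differed in the motifs they offered and in those that were footprinted. SP matches were in 84.0% of CpG-rich windows and 17.0% of CpG-poor ones, and NRF1 in 21.1% and 0.908%. For TATA the order was turned, with 5.34% and 22.9%, and for NFY the shares were 37.4% and 46.0%. Footprinted TATA matches nevertheless came mostly from CpG-rich open starts, with 27 of 319 matches (8.46%, 5.65 to 12.1%) in technical replicate 7. None of the 204 matches at CpG-poor open starts was footprinted, which allows a share of up to 1.79%. In technical replicate 1 the counts were 54 of 294 (18.4%, 14.1 to 23.3%) and 4 of 83 (4.82%, 1.33 to 11.9%). At CpG-poor open starts peak density was lower, as given above, and its part in this was not tested. SP stood out over flanks in every class, by 3.87 (3.62 to 4.13) times in CpG-rich, 5.66 (5.16 to 6.20) in intermediate and 7.20 (5.19 to 9.99) in CpG-poor starts of technical replicate 7. Of open starts with a footprint, 47.2% in technical replicate 7 and 36.5% in technical replicate 1 had none of the 5 motifs in a footprint.

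Footprints at starts overlapped those of the other library more often than distant ones did. Footprints are dense at open starts, where 6.65% of bases in technical replicate 7 and 15.8% in technical replicate 1 lay in one, and the part of this density in the overlaps was not tested. Of the members in technical replicate 7, 71.8% (71.2 to 72.3%) overlapped a footprint of technical replicate 1 by at least 1 bp, against 33.5% (33.1 to 33.8%) of those over 1000 bp from any such start. Of the members in technical replicate 1, 33.6% (33.3 to 34.0%) overlapped one of technical replicate 7, against 19.2% (18.96 to 19.41%). Footprints that held NRF1 overlapped in 92.2% and 80.8%, those with SP in 87.8% and 63.7%, and those with none of the 5 motifs in 66.1% and 26.3%. Width went with overlap too, at 97.5% and 79.4% for 20 bp or more and 52.0% and 13.6% for 7 bp. Upstream footprints overlapped in 74.0% (73.3 to 74.6%) and the rest in 67.5% (66.5 to 68.5%) in technical replicate 7, against 43.4% (42.9 to 44.0%) and 23.0% (22.5 to 23.5%) in technical replicate 1. Starts with a footprint in both libraries numbered 9655, which is 96.3% of those of technical replicate 7 and 81.4% of those of technical replicate 1.

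Gene lists are read here against the shares over all starts, 48.2% and 57.0%. Among open starts the shares were 80.6% and 96.4%. All starts of the mitochondrial, mitosis and chaperone lists were open in both libraries, and none of them was CpG-poor. Of the erythroid starts 17 of 23 were CpG-poor, and of the hepatoblast starts 12 of 19. The part of this make-up in the counts was not tested. The genes named from each list are the 3 with most footprints summed over both libraries, so that others can be as high or higher in 1 library. All 21 genes for mitochondrial proteins, most of them of respiration or of mitochondrial transcription, were open and had a footprint in both libraries. Hspe1 and Hspd1, the mitochondrial chaperonin subunits, held 6 and 5 footprints in technical replicate 7 and 9 and 10 in technical replicate 1. Their starts lie on opposite strands of chromosome 1, close enough to share footprints. Cycs, cytochrome c, held 6 and 8, including an NRF1 footprint centred at −89 bp in technical replicate 7 and at −88 bp in technical replicate 1. Of the 9 genes of this list with an NRF1 match, 7 had it in a footprint in technical replicate 7 and 8 in technical replicate 1, where over all starts 1053 and 1239 of 1980 did. Among open starts with a match, 1050 of 1894 and 1227 of 1854 did.

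All 13 mitosis genes had a footprint in both libraries. All 13 also had a CCAAT match within 200 bp, and in both libraries 3 of them had such a match with its centre in a footprint. Over all starts with a CCAAT match, 456 of 8869 had it in a footprint in technical replicate 7 and 913 in technical replicate 1. Among open starts with a match, as all 13 were, the counts were 454 of 4986 and 889 of 4573. Cdc25c, the phosphatase that activates CDK1, held 4 footprints in technical replicate 7 and 9 in technical replicate 1. Top2a, DNA topoisomerase II, held 6 and 7, of which the ones centred at −72.5 and −102 bp held CCAAT in technical replicate 7. Cdk1, the mitotic kinase, held 4 and 8, and Ccna2 had the same counts.

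All 9 chaperone and unfolded-protein-response genes had a footprint in both libraries, among them Hspa8 (10 and 9) and the endoplasmic reticulum chaperones Hspa5 (5 and 10) and Hsp90b1 (6 and 9). Housekeeping genes had one in 8 of 10 and 10 of 10, among them Ubb, a ubiquitin precursor, Polr2a, the large RNA polymerase II subunit, and B2m. Psmb4 (2 and 6) had the same sum as B2m (4 and 4). Of the genes for the binding factors themselves 9 of 11 had one in both libraries, with 8 and 10 footprints at Sp1, 7 and 10 at Nfya and 9 and 7 at Nfyb. The starts of Nfya and Oard1 lie on opposite strands of chromosome 17, close enough to share footprints. Nfyc and Gabpb1, named after their values were seen, had no peak and no footprint at the annotated 5′ end in either library.

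The Hist1h histone genes had a footprint in 43 of 54 and 42 of 54 starts. Their copies are similar in sequence, so how reads were placed between them can affect each count. The highest sums were at Hist1h4h (8 and 11), Hist1h1a (3 and 9) and Hist1h4a (6 and 5), where Hist1h3e (4 and 7) had the same sum as Hist1h4a. At Hist1h4h the widest footprint of each library, 19 and 23 bp, was centred at −73 bp and held TGACGTCA, the cyclic AMP response element. A TATA match lay in 29 of the 54 windows, and in a footprint in 5 in technical replicate 7 and 10 in technical replicate 1. Over all starts with a TATA match these counts were 33 and 80 of 2840. Among open starts with a match they were 33 of 788 and 77 of 644. The histone counts take all 54 starts, of which 44 were open in technical replicate 7 and 30 in technical replicate 1.

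Marker genes of liver cells and of other tissues were counted in the same way, and no difference between these short lists was tested. Of 23 erythroid genes found in the annotation 11 had a footprint in technical replicate 7 and 12 in technical replicate 1, and of 19 hepatoblast genes 11 and 9. Markers of other tissues had one in 5 and 6 of 8 neuronal genes and 2 and 3 of 8 striated muscle genes. As shares these lie on both sides of the shares over all starts. The genes with the highest sums in the erythroid list were Tfrc, the transferrin receptor (5 and 8), Urod, an enzyme of haem synthesis (6 and 5), and Zfpm1, a cofactor of GATA1 (5 and 4). In the hepatoblast list they were the transcription factors Cebpa (5 and 9), Onecut1 (2 and 4) and Onecut2 (3 and 2). In the neuronal list they were Syt1 (0 and 6), Tubb3 and Isl1 (2 and 2 each), where Map2 and Snap25 had the same sum (1 and 3 each). Neither Syt1 nor Snap25 had a peak in technical replicate 1. In the muscle list they were Ryr1 (2 and 5), Actn2 (2 and 3) and Des (0 and 4).

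The following genes were chosen after their values were seen. The adult and embryonic globin genes had almost no start footprint. Hbb-bt and Hba-x held 1 each in technical replicate 7, Hbb-bs, Hbb-y, Hbb-bh1, Hba-a1 and Hba-a2 held none, and none of the 7 had a footprint in technical replicate 1. In technical replicate 7 the peak density was 0.469 at Hbb-bt, 0.449 at Hba-x and 0.601 at Hbb-bs, with no peak at the other 4, and in technical replicate 1 none of the 7 had a peak. The alpha-globin copies Hba-a1 and Hba-a2 are nearly identical, so their counts are uncertain. Alb, serum albumin, had neither peak nor footprint in either library. Klf1, the erythroid Krüppel-like factor, is CpG-poor and held 1 footprint in technical replicate 7 and 3 in technical replicate 1, none of them overlapping between the libraries. Its start had a peak of density 1.15 in technical replicate 7 but no peak in technical replicate 1. Nfe2, another erythroid factor with a CpG-poor start, held 1 and 4, and the SP footprint about 20 bp upstream was called in both.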

How the data were processed

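2 footprint lists and the peak lists of both libraries were used. The deposited footprints are coordinates on mm10, per the labels. In technical replicate 1 the deposited list carries a constant 0.01, taken here as the threshold of the list, whose measure is not stated. Per the accompanying notes, the authors derived the footprints of technical replicate 7 from its hotspots and those of technical replicate 1 from an alignment and FDR cut rates. The deposited peaks, called per library, give a signal, the highest density of cuts, per the file headers. For the aligner, callers and depth: not given in the sources used here. Of 2 alike lists the shorter was used.

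Starts were the 5′ ends of autosomal protein-coding genes in GENCODE M21. Each footprint was placed at its nearest start. Counts per start took every start within 200 bp, so 2269 (technical replicate 7) and 4060 (technical replicate 1) placements repeat a footprint. Python 3 with pandas and scipy was used. Placement and counting were tested on simulated data. Shares have exact Clopper-Pearson intervals at 95%, ratios Katz intervals and gaps Newcombe intervals. Named starts were the 5 with most footprints in each library, 2 for each motif, and the 3 members of each list with most footprints. Members and lists were chosen with earlier results of these data known. Ahsp was not found by symbol. Alternatives covered lists, windows, transcript starts, CpG limits, flanks and overlap.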

Additional observations from a re-analysis of the deposited data

How the results depend on the processing

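No paired analysis was possible because both libraries are technical replicates of 1 sample, with no groups to compare; nor could a replicate be left out. With 100 bp windows the start footprints were 18.2% of technical replicate 7 and 16.4% of technical replicate 1, with transcript starts 29.4% and 32.1%, and with the longer list of technical replicate 7 18.1%. The upstream share was 62.7% and 52.6% with 100 bp windows, 70.5% and 55.7% with transcript starts, 67.1% and 53.0% without starts that have another within 1000 bp, 66.3% and 52.7% for footprints in peaks, and 59.7% with the longer list. The CpG-rich minus CpG-poor gap was 19.5 and 6.21 points with 1 boundary at 0.6, 34.9 and 14.9 points with CpG counted in 400 bp, 73.0 and 80.5 points over all starts, and 31.4 and 12.4 points with the longer peak lists. It was 6.95 points with the longer footprint list and 11.3 points in technical replicate 1 with 100 bp windows. The ratio of the 5 motifs was 3.69 and 3.33 with flanks at 80 bp, 3.81 and 3.67 with the whole motif inside, and 2.30 and 2.06 with flanks of like G and C content. The share overlapped in the other library was 66.4% and 30.6% when 50% of the shorter had to overlap. With the longer list of technical replicate 7 it was 55.7% for that list and 54.7% for technical replicate 1. Ratios that changed sides of 1 were those of NFY with flanks of like G and C content, 1.03 and 1.00, of TATA with flanks at 80 bp, 0.841 and 0.874, and of TATA with the longer list, 0.978. The cause was not tested. Gaps computed with peaks of the same processing as the footprints of technical replicate 1, an alternative chosen after seeing the data, came to 9.66 points.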

Other observations

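Further motifs, each searched as exact letters on both strands, were held by footprints at gene starts to very different degrees. The cyclic AMP response element TGACGTCA, bound by CREB and ATF proteins, stood highest over flanks, at 11.1 (7.40 to 16.5) times in technical replicate 7 and 10.9 (7.73 to 15.5) times in technical replicate 1. Of its matches at open starts 46.3% and 68.5% lay in a footprint. The bin with most of these footprinted matches, by count, was 10 to 0 bp upstream in both libraries. The ZNF143 and THAP11 core ACTACAATT had ratios of 4.31 (1.82 to 10.2) and 2.13 (1.06 to 4.29), on 20 footprints in each library, and TCTCGCGAG, the site of ZBTB33, 2.02 (1.31 to 3.14) and 2.38 (1.57 to 3.60). The YY1 site AAGATGGCG had ratios of 1.15 (0.818 to 1.62) and 1.35 (1.06 to 1.73). Around YY1 sites a base was footprinted in 1.09% of cases at 5 bp to the 5′ side of the centre and in 29.6% at 5 bp to the 3′ side in technical replicate 7.

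The letters AGATAA, read by GATA factors that include the erythroid regulator GATA1, were rarer in start footprints than in flanks. The ratios were 0.192 (0.0823 to 0.450) in technical replicate 7 and 0.453 (0.308 to 0.667) in technical replicate 1. AP1 sites, TGANTCA, had ratios of 0.256 (0.126 to 0.519) and 0.288 (0.182 to 0.455). None of these further motifs was compared with flanks of like G and C content.

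Among 231 hexamers held by at least 200 footprints of technical replicate 7, those with the highest ratios over flanks were GCATGC (7.20), ATGCGC (7.01) and CATGCG (6.92), followed by CCCCGC (6.53). With 614 hexamers ranked, the highest in technical replicate 1 were GCCCCC (6.09), CCCCCC (5.97) and CGCCCC (5.94). There GCATGC had a ratio of 3.86, the hexamer ATGCGC one of 3.87 and CATGCG one of 3.83. Hexamers were ranked against flanks poorer in G and C than the footprints, and the part of this in the ranking was not tested.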
